A study of Mus musculus with 8 samples.

Results

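The clustered protocadherins are cadherin-type adhesion proteins of the neuronal surface, encoded in mouse by 3 neighbouring gene clusters named alpha, beta and gamma. Members were taken by gene symbol, as every gene named Pcdh followed by a, ac, b, ga, gb or gc and a number, which gave 57 of the 18560 genes in the expression table. These were 14 alpha genes (12 alternate genes and the C-type genes Pcdhac1 and Pcdhac2), 22 beta genes, and 21 gamma genes (12 of type gamma A, 6 of type gamma B and the 3 C-type genes Pcdhgc3, Pcdhgc4 and Pcdhgc5). The values came from RNA sequencing of samples labelled as mouse dorsal root ganglia, the clusters of sensory neuron cell bodies beside the spinal cord. There were 4 libraries with the genotype label WT_P60 and 4 with the label cKO_P60. The series describes the second group as carrying a deletion of Alyref, which encodes an adaptor for export of mRNA from the nucleus. The labels give no Cre driver, no floxed allele, no cells in which the deletion takes place, no sex, no pooling and no treatment, and they do not spell out P60. The design text mentions separate biological replicates in 4 sequencing batches without assigning them to libraries, so no within-batch value could be given and batch and group cannot be told apart.

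In the alpha and gamma clusters each gene name stands for a large variable first exon with a promoter of its own, which is spliced to constant exons shared by the whole cluster, whereas beta genes consist of a variable exon alone. Neurons are known to switch on a small and largely random set of the alternate promoters, through the factor CTCF and the cohesin complex, while C-type promoters follow more regular cell-type patterns. The proteins bind to identical proteins on other membranes, and the resulting surface identity is known for self-avoidance of dendrites and axons and, in the gamma cluster, for survival of spinal interneurons in mouse.

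All 57 genes lie on chromosome 18 (GRCm38). The alpha genes span chr18:36930285-37188897, the beta genes chr18:37264998-37521419 and the gamma genes chr18:37661775-37841873. In the GENCODE M21 annotation, 56 of the 57 genes were found (Pcdha10 was not matched by symbol). A transcript was chosen for each gene by its annotation tags (principal, consensus coding and protein-coding), and by length only among equals. Each of 13 alpha and 21 gamma genes had 4 exons in that transcript, all on the plus strand. Exons 2 and 3 were identical across all 13 alpha genes, and likewise across all 21 gamma genes, and every beta gene had 1 exon. Over whole transcripts, 48.0% to 59.3% of the 75-base words of an alpha transcript and 41.0% to 51.6% of those of a gamma transcript also occurred in another member, against 0% to 8.96% for beta genes. Within the first exon alone the share was 0% to 14.3% in alpha and 0% to 13.3% in gamma. Reads from the constant exons therefore cannot be assigned to a single alpha or gamma gene by sequence, and the authors' estimated counts of these genes include reads divided between members. Beta genes and the sum over a cluster depend least on that division. The 5 C-type genes had no 75-base word of the first exon in common with another of the 56 genes found. The same held for the gamma A genes other than Pcdhga8 and Pcdhga9, and for Pcdhb1 and Pcdhb13.

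Depth was even, at 15522915 to 16482614 total estimated counts per library. Alyref did not separate the groups. It stood at 20.9, 25.7, 19.4 and 22.2 CPM (counts scaled to the size of the library) in WT replicates 1 to 4 and at 21.6, 19.4, 20.1 and 20.7 CPM across cKO replicates 1 to 4. The estimated log2 difference was −0.11 ± 0.097 (SE; adjusted p = 0.887, edgeR; exact two-sided permutation p = 0.371), so the second group is called here the libraries labelled cKO. WT replicate 2 stood apart from the other 7 libraries. Its Spearman correlation with them over all tested genes was 0.944 to 0.967, against 0.990 to 0.996 among the other 7. Summed markers of sensory neurons (10 genes such as Avil and Scn10a) reached 2424 CPM in it and 130 to 623 CPM elsewhere, and markers of fibroblasts (6 genes such as Dcn) 3087 CPM against 702 to 1246 CPM. Markers of spinal neurons (8 genes such as Slc6a5) summed to 568 CPM in it against 1047 to 1213 CPM, of astrocytes to 1974 against 4388 to 5792 CPM, and of oligodendrocytes to 717 against 1575 to 2359 CPM, so that markers of spinal cord cells were present in all 8 libraries labelled as ganglia. None of these markers was at 0 in all libraries. With all libraries, 0 of 10 sensory neuron, 0 of 6 fibroblast, 8 of 8 spinal neuron and 6 of 6 astrocyte markers had a higher estimate in the libraries labelled cKO, and without WT replicate 2 these numbers were 7, 2, 4 and 1. The median log2 fold change changed sign without that library only for sensory neuron (−1.42 to 0.08) and astrocyte (0.18 to −0.02) markers. Fibroblast (−0.81 to −0.31), spinal neuron (0.19 to 0.02) and the remaining marker lists kept their sign. Of oligodendrocyte markers, 6 of 6 were higher with that library and 5 without it. Of endothelial markers, 0 of 5 were higher either way (median log2 fold change −0.27 with it and −0.26 without it). WT replicate 2 was the only library in which summed sensory neuron markers exceeded summed spinal neuron markers. Results on the protocadherins are given with and without WT replicate 2, and those without it come from libraries with the opposite order. These are whole-tissue values, in which fewer cells of a type and less RNA per cell cannot be told apart.

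At least 56 of the 57 clustered protocadherins had a count in each library. Together they took 0.0567% to 0.0661% of all counts, or 9245 to 10536 estimated counts per library. Levels between genes are compared in TPM, which corrects counts for transcript length as well as depth. Summed over members, TPM reached 301, 215, 286 and 294 in WT replicates 1 to 4 and 292, 284, 308 and 274 across cKO replicates 1 to 4. WT replicate 2 was the lowest of the 8, and the other WT libraries lay within or near the range of the libraries labelled cKO. Sums over the gamma cluster cover the 21 genes listed above. The gamma cluster contributed 53.3% to 58.7% of the summed TPM, beta 21.5% to 24.4% and alpha 18.4% to 24.3%. Averaged over all libraries, the sums were 161.8 TPM for gamma, 63.6 TPM for beta and 56.3 TPM for alpha. The median gene stood at 5.67 TPM in gamma, 2.98 TPM in alpha and 2.43 TPM in beta.

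**Figure D1:**
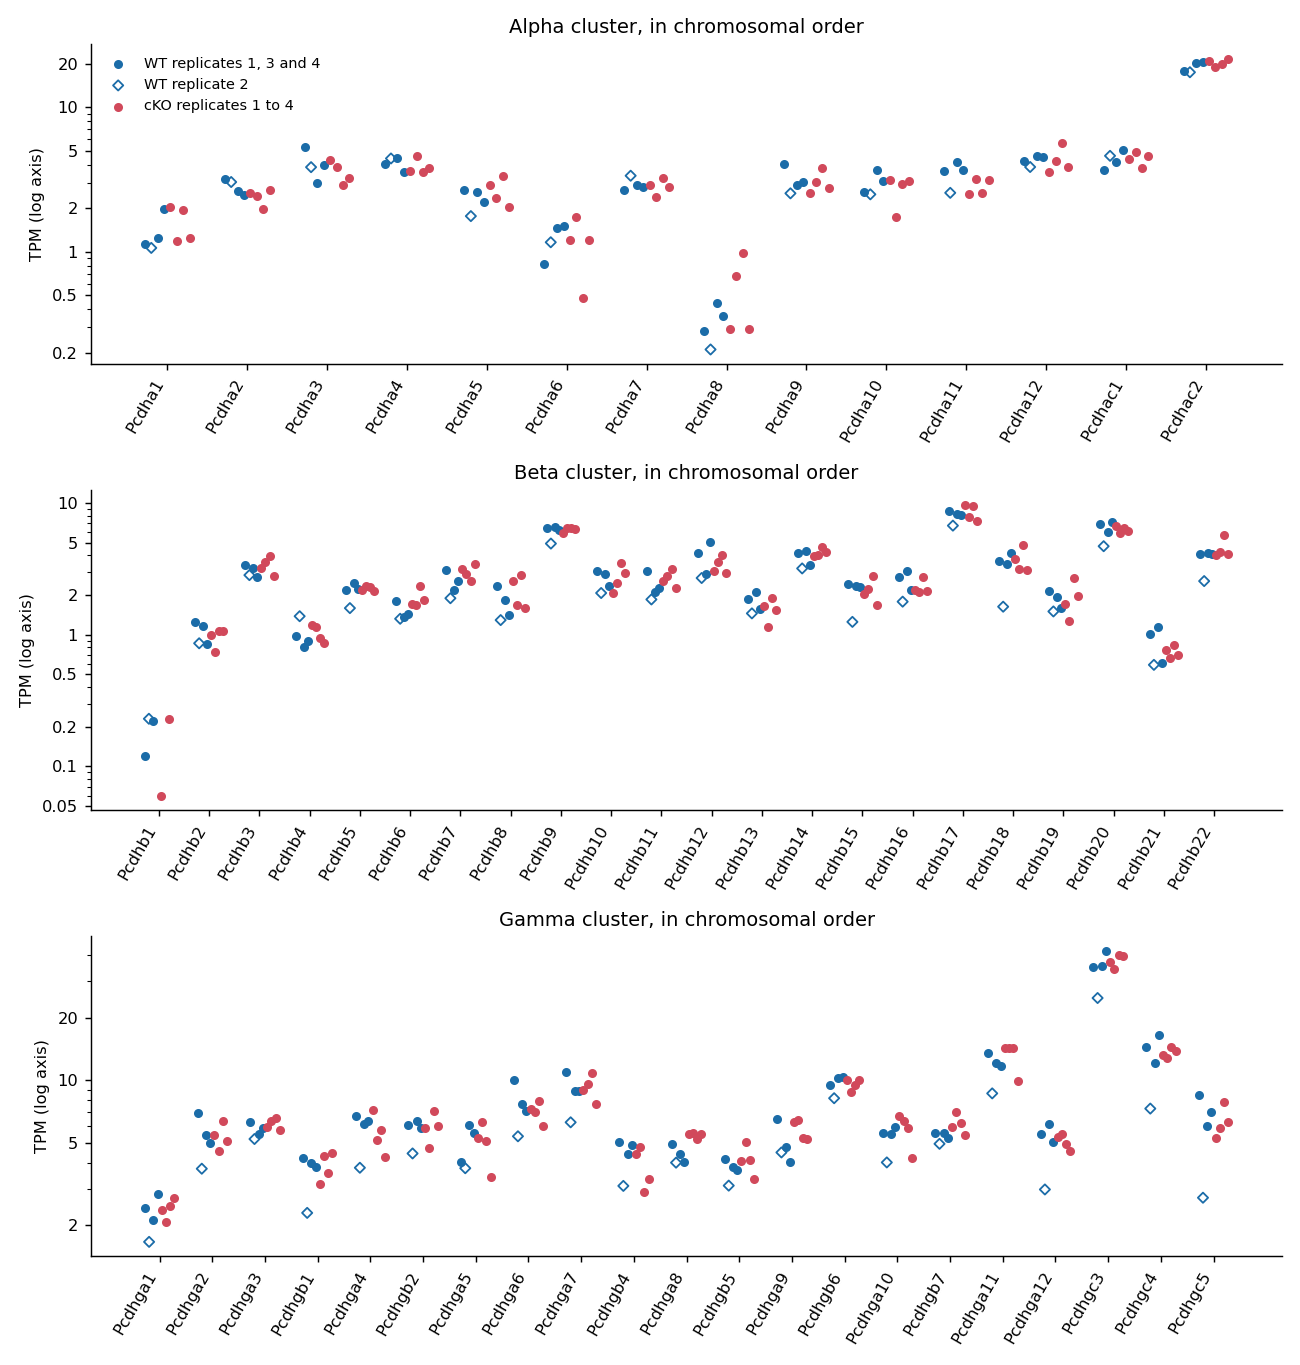
Level of each of the 57 clustered protocadherins in TPM on a log axis, by cluster and in chromosomal order, with a point for each library (WT in blue, with WT replicate 2 as an open diamond, and cKO in red). Libraries at 0 TPM (Pcdhb1 only) are not drawn, and Pcdhgc3 and Pcdhac2 stand above the other members in every library.

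The C-type genes led the levels. Pcdhgc3, whose protein is known from mouse neurons to promote dendrite branching through Axin1, was the most abundant member, at 35.2, 24.9, 35.6 and 42.0 TPM in WT replicates 1 to 4 and 37.3, 34.5, 40.0 and 39.6 TPM in the libraries labelled cKO. Pcdhac2, which serotonergic axons of the mouse use to spread evenly over their targets, followed at 17.9, 17.4, 20.2 and 20.7 TPM in WT and 20.9, 19.0, 19.8 and 21.7 TPM in cKO. Neither range touched its neighbours in the order, since the lowest library of Pcdhgc3 lay above the highest of Pcdhac2, and the lowest of Pcdhac2 above the highest of Pcdhgc4. Pcdhgc4, the gamma isoform that mouse interneurons need for survival, followed at 14.4, 7.29, 12.1 and 16.54 TPM in WT and 13.2, 12.8, 14.5 and 13.8 TPM in cKO. Pcdhga11, a gamma A isoform, was next at 13.5, 8.63, 12.2 and 11.8 TPM in WT and 14.3, 14.2, 14.3 and 9.89 TPM in cKO, and its libraries overlapped those of Pcdhgc4.

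The remaining C-type genes were less abundant. Pcdhgc5, an isoform known from rodent brain to associate with inhibitory synapses, stood at 8.47, 2.71, 5.98 and 7.0 TPM in WT and 5.27, 5.90, 7.82 and 6.25 TPM in cKO. Pcdhac1 stood at 3.65, 4.6, 4.19 and 5.01 TPM in WT and 4.38, 4.86, 3.76 and 4.62 TPM in cKO. These 2 genes overlapped in their range over libraries, and Pcdhac1 did not stand above the alternate alpha gene Pcdha12 (3.55 to 5.63 TPM over the 8 libraries). The 2 C-type genes held 38.4% to 46.7% of alpha TPM, and the 3 C-type genes held 30.4% to 38.1% of gamma TPM.

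Among the beta genes, Pcdhb17, Pcdhb20 and Pcdhb9 were highest, at 6.72 to 9.68, 4.69 to 7.12 and 4.91 to 6.58 TPM over the 8 libraries. Pcdhb20 and Pcdhb9 overlapped almost entirely. Pcdhb1, the first gene of the beta cluster, was the lowest member of all, with 0 to 5 counts per library and a listed value of 0 in WT replicate 4 and cKO replicates 2 and 4, and it was the only member that failed the low-count filter. Pcdhb21 was the next lowest beta gene at 0.59 to 1.15 TPM. The lowest alpha genes were Pcdha8, at 0.21 to 0.98 TPM, and Pcdha6, at 0.48 to 1.73 TPM, and the lowest gamma genes were Pcdhga1, at 1.66 to 2.82 TPM, and Pcdhgb1, at 2.29 to 4.45 TPM. From the highest to the lowest mean, levels spanned 15.53-fold in gamma and 44.6-fold in alpha, and no fold is given for beta because Pcdhb1 rested on so few counts. Across genes, the position along the chromosome and the mean TPM had a Spearman rho of 0.56 in alpha (14 genes), 0.40 in beta (22 genes) and 0.50 in gamma (21 genes), as a description of genes measured in the same libraries.

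The next question was whether clustered protocadherin RNA differed between the libraries labelled cKO and WT. No member passed the test. Of the 56 members tested with edgeR's quasi-likelihood test, 0 had an adjusted p below 0.05, and over all 15098 tested genes the share called was also 0%, with a lowest adjusted p of 0.887. DESeq2 and limma-voom also called 0 members. At an unadjusted p below 0.05 there was 1 member, Pcdhga8, or 1.79% of those tested, beside 1.65% of all genes (249 genes). Evenly spread p-values would give 754.9 genes, so the p-values ran high, and a lack of calls does not show equal levels. The groups did not overlap for 1 member in the direction of higher cKO, again Pcdhga8, beside 0.603% of all tested genes, and for 0 members in the direction of lower cKO, beside 0.914%. These member counts stand near the background of the table. P-values here measure the spread between these libraries.

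By direction of the estimate alone, 36 members were higher and 20 lower in the libraries labelled cKO (64.3% higher, beside 48.5% of all tested genes). Alpha had 4 higher and 10 lower (median log2 fold change −0.07), beta 15 higher and 6 lower (median 0.07) and gamma 17 higher and 4 lower (median 0.07), where the median over all genes was −0.00. The direction in beta and gamma depended on WT replicate 2. Without it, 25 members were higher and 31 lower. Alpha then had 6 higher and 8 lower (median −0.03), beta 11 higher and 10 lower (median 0.00), and gamma 8 higher and 13 lower (median −0.03). The 95% interval of the log2 fold change lay within −1 to 1 for 55 of the 56 members, all except Pcdha8, and within −0.5 to 0.5 for 28 members.

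**Figure D2:**
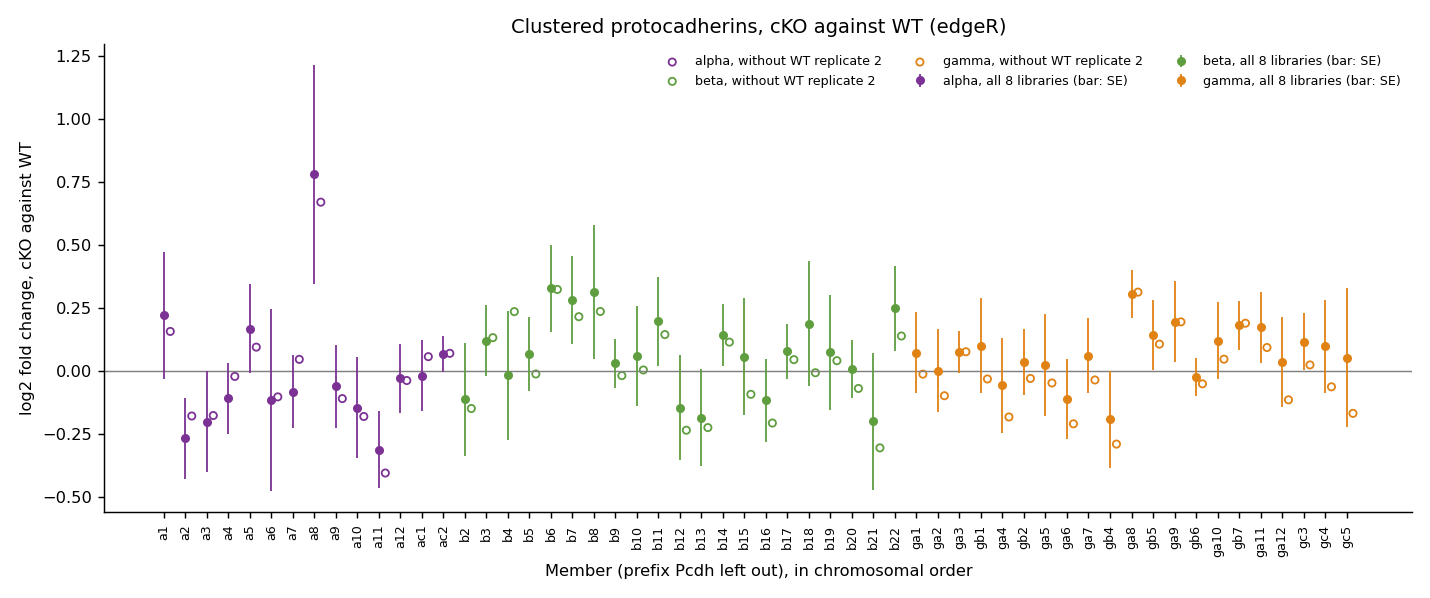
log2 fold change of the 56 tested members between libraries labelled cKO and WT (edgeR), in chromosomal order and coloured by cluster, with all 8 libraries (filled points, bars are SE) and without WT replicate 2 (open points, no bars drawn). All filled points except that of Pcdha8 (0.78) lie between −0.31 (Pcdha11) and 0.33 (Pcdhb6), the lowest open point is Pcdha11 at −0.41, and most gamma points move down when WT replicate 2 is left out.

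A sum over the cluster avoids the division of shared reads among the members summed. Summed in this way, alpha held 150.1, 156.4, 154.8 and 154.7 CPM in WT replicates 1 to 4. Across cKO replicates 1 to 4 it held 152.0, 150.4, 147.8 and 153.8 CPM. These sums differed little between libraries (154.0 ± 2.71 CPM in the WT libraries and 151.0 ± 2.56 CPM in the cKO libraries; SD, n = 4 each), and the groups overlapped. Within alpha, the sum of the 12 alternate genes did not overlap, at 85.1 to 90.4 CPM in the WT libraries and 79.9 to 84.3 CPM in the cKO libraries. In TPM the same sum overlapped, at 30.2 to 34.5 in WT and 30.1 to 33.3 in cKO. The sum of the 2 C-type alpha genes overlapped, at 59.7 to 69.6 CPM in WT and 63.5 to 73.9 CPM in cKO. This split within alpha rests on divided reads, and the difference was not tested. Beta held 113.6, 87.5, 104.1 and 101.3 CPM in the WT libraries and 105.9, 101.7, 119.9 and 101.2 CPM in the cKO libraries. Gamma held 404, 293, 368 and 386 CPM in the WT libraries and 388, 387, 393 and 364 CPM in the cKO libraries. In beta and gamma WT replicate 2 was the lowest library and the others overlapped between groups. The log2 differences of the group means of the log2 sums, cKO against WT, were −0.03 for alpha, 0.08 for beta and 0.09 for gamma. WT without replicate 2 averaged 106.3 ± 6.48 CPM for beta and 386 ± 17.9 CPM for gamma (SD, n = 3), beside 107.2 ± 8.74 and 383 ± 13.0 CPM in the cKO libraries (SD, n = 4).

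**Figure D3:**
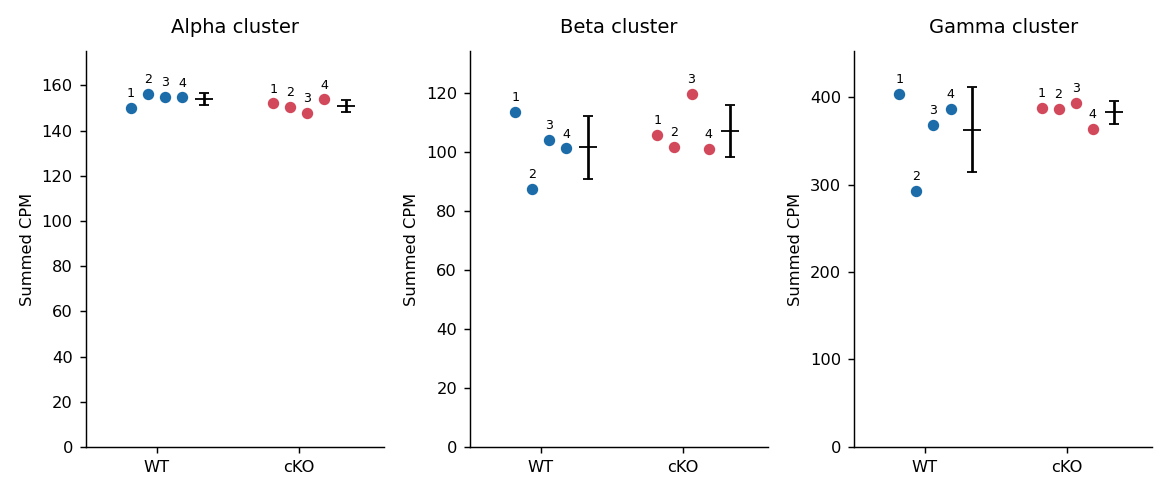
Summed CPM of all members of the alpha, beta and gamma clusters in each library, numbered by replicate, with the mean and SD of each group of 4 in black. Alpha lies between 147.8 and 156.4 CPM in all 8 libraries, while WT replicate 2 is the lowest point of beta (87.5 CPM) and of gamma (293 CPM).

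Pcdhga8, a gamma A isoform (Entrez 93716, chr18:37725706-37841873), had the lowest p of the members. It held 11.3, 10.2, 10.01 and 9.05 CPM in WT replicates 1 to 4 and 12.6, 12.9, 11.6 and 12.8 CPM in the libraries labelled cKO. All cKO libraries lay above all WT libraries, by a narrow margin between WT replicate 1 and cKO replicate 3. The log2 fold change of Pcdhga8 was 0.31 ± 0.096 (SE), and its 95% interval ran from 0.09 to 0.52. Its adjusted p was 0.887 (edgeR). Without WT replicate 2 the log2 fold change was 0.31 (adjusted p = 0.9997, edgeR). Part of its reads may belong to other gamma genes, since 45.3% of its 75-base words occurred in other members, 2.44% within its first exon.

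The next gamma genes by p were Pcdhgb7, a gamma B isoform, and Pcdhga9, a gamma A isoform. Pcdhgb7 held 12.6, 12.5, 12.5 and 11.7 CPM in the WT libraries and 13.5, 16.2, 13.7 and 12.5 CPM in the cKO libraries (log2 fold change 0.18 ± 0.098 SE, adjusted p = 0.887, edgeR). Pcdhga9 held 14.8, 11.4, 10.8 and 9.06 CPM in the WT libraries and 14.4, 14.8, 11.7 and 12.02 CPM in the cKO libraries (log2 fold change 0.20 ± 0.16 SE, adjusted p = 0.887, edgeR). The groups overlapped in both genes, for Pcdhgb7 through cKO replicate 4 alone, which lay level with the WT libraries.

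In the alpha cluster the genes of lowest p were Pcdha11, Pcdha8 and Pcdha2, all alternate isoforms. Pcdha11 held 9.26, 7.29, 10.6 and 9.19 CPM in the WT libraries and 6.40, 8.24, 6.37 and 8.18 CPM in the cKO libraries (log2 fold change −0.31 ± 0.15 SE, adjusted p = 0.887, edgeR), and WT replicate 2 lay inside the cKO range. Without that library its log2 fold change was −0.41 (adjusted p = 0.9997, edgeR). Pcdha8 held 0.731, 0.611, 1.125 and 0.896 CPM in the WT libraries and 0.743, 1.77, 2.43 and 0.752 CPM in the cKO libraries (log2 fold change 0.78 ± 0.43 SE, adjusted p = 0.887, edgeR). Its cKO libraries fell into a high and a low pair, the low pair within the WT range, and its counts were only 10.52 to 38.8 per library. Pcdha2 held 8.31, 8.87, 6.79 and 6.36 CPM in the WT libraries and 6.61, 6.48, 4.996 and 7.06 CPM in the cKO libraries (log2 fold change −0.27 ± 0.16 SE, adjusted p = 0.887, edgeR), with overlapping groups.

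In the beta cluster, where counts are least affected by shared sequence, the genes of lowest p were Pcdhb6, Pcdhb7 and Pcdhb22. Pcdhb6 held 3.03, 2.50, 2.25 and 2.37 CPM in the WT libraries and 2.90, 2.88, 3.82 and 3.12 CPM in the cKO libraries (log2 fold change 0.33 ± 0.17 SE, adjusted p = 0.887, edgeR). WT replicate 1 alone reached into the cKO range. Pcdhb7 held 5.14, 3.48, 3.60 and 4.17 CPM in the WT libraries and 5.17, 4.86, 4.14 and 5.75 CPM in the cKO libraries (log2 fold change 0.28 ± 0.17 SE, adjusted p = 0.887, edgeR). WT replicates 1 and 4 lay within the cKO range of that gene. Pcdhb22, the last gene of the cluster, held 5.80, 4.07, 5.85 and 5.73 CPM in the WT libraries and 5.68, 6.07, 7.84 and 5.87 CPM in the cKO libraries (log2 fold change 0.25 ± 0.17 SE, adjusted p = 0.887, edgeR). For Pcdhb22, cKO replicate 1 lay just below the WT libraries other than replicate 2, and without that replicate the log2 fold change was 0.14.

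The C-type genes had estimates close to 0. Pcdhac2 stood at 54.5 ± 2.97 CPM in the WT libraries and 57.1 ± 3.77 CPM in the cKO libraries (SD, n = 4 each), with a log2 fold change of 0.07 ± 0.070 (SE) and a 95% interval from −0.09 to 0.23, the narrowest of the 5. Pcdhac1 stood at 11.5 ± 1.77 and 11.4 ± 1.42 CPM, with a log2 fold change of −0.02 and an interval from −0.34 to 0.30. For Pcdhgc3 the means were 79.1 ± 12.4 and 85.7 ± 5.21 CPM, with a log2 fold change of 0.12 and an interval from −0.14 to 0.37. Pcdhgc4 stood at 31.0 ± 8.56 and 33.2 ± 1.46 CPM, with a log2 fold change of 0.10 and an interval from −0.32 to 0.52, and Pcdhgc5 at 13.8 ± 5.23 and 14.4 ± 2.26 CPM, with a log2 fold change of 0.05 and an interval from −0.58 to 0.68. The adjusted p was 0.887 to 0.973 for all 5 (edgeR). Without WT replicate 2 the log2 fold changes were 0.02 for Pcdhgc3, −0.06 for Pcdhgc4 and −0.17 for Pcdhgc5, so the signs of Pcdhgc4 and Pcdhgc5 changed. The estimate of Pcdhgc5 was also negative without cKO replicate 3, at −0.05.

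WT replicate 2 differed from the other libraries unequally across the clusters. Its summed CPM was 1.03 times the median of the other 7 libraries in alpha, 0.841 times in beta, 0.757 times in gamma and 0.666 times in the C-type gamma genes. On the TPM scale the alpha sum was lower instead of higher in it, at 52.3 TPM against 55.3 to 58.8 TPM in the other 7. Of the 57 members it was, by CPM, the lowest of the 8 libraries for 21 and the highest for 6, where it was the lowest for 36.8% and the highest for 37.5% of all tested genes. The share of members for which it was lowest thus lay near that of all tested genes. The share for which it was highest lay below that of all tested genes. The 21 lowest were 11 gamma, 8 beta and 2 alpha genes. The 6 highest were Pcdha2, Pcdha4, Pcdha7, Pcdhac1, Pcdhb1 and Pcdhb4, with 0 gamma genes among them. Pcdhb1 is not among the tested genes and held only 5 counts in that library.

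The largest single departures downward in this library were Pcdhgc5 at 6.90 CPM, or 0.477 times the median of the other 7 (11.97 to 19.4 CPM), and Pcdhb18 at 4.47 CPM, or 0.502 times (7.69 to 11.4 CPM in the other 7). Pcdhgc4 stood at 0.581 and Pcdhgc3 at 0.747 times the median of the others, so the 3 C-type gamma genes were unequally low, and the ratio of Pcdhgc5 to Pcdhgc3 in TPM was 0.109 there against 0.141 to 0.240. Upward, Pcdhb4 held 2.73 CPM, or 1.67 times the median of the other 7 (1.40 to 2.08 CPM). The ratio of gamma to alpha in TPM was 2.195 in WT replicate 2 and 2.77 to 3.14 elsewhere. This library also had the highest summed markers of sensory neurons and fibroblasts and the lowest of spinal neurons, astrocytes and oligodendrocytes. Their part in these protocadherin levels was not tested.

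**Figure D4:**
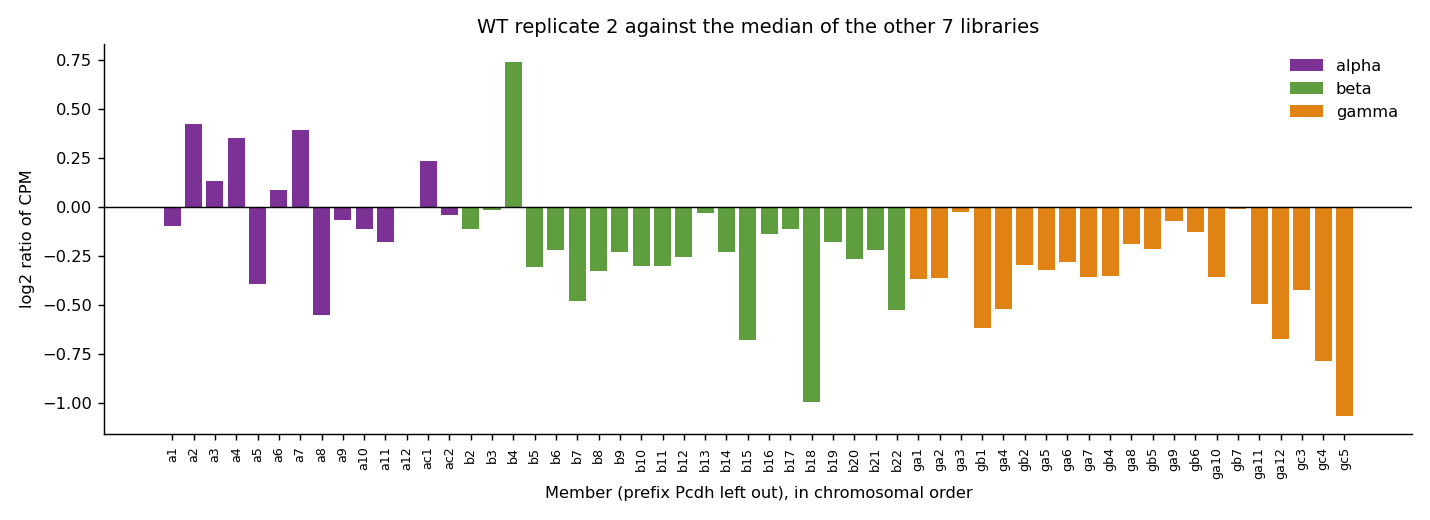
log2 ratio of CPM in WT replicate 2 to the median of the other 7 libraries for the 56 tested members, in chromosomal order and coloured by cluster. All gamma bars are below 0, down to Pcdhgc5 at 0.477 times the median of the others, while alpha bars lie on both sides of 0.

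The make-up of the gamma cluster varied between libraries of both groups. The C-type share of gamma TPM was 33.03%, 30.4%, 32.97% and 38.1% in WT replicates 1 to 4 and 32.8%, 31.9%, 35.4% and 38.1% across cKO replicates 1 to 4. It was thus highest in the replicates numbered 4 of both groups. The gamma A share was correspondingly lowest in those libraries, at 42.1% in WT replicate 4 and 41.1% in cKO replicate 4 against 45.7% to 47.5% in the other 6, and the gamma B share ranged from 18.9% to 22.7%. Among gamma A genes, cKO replicate 4 was lowest of its group for Pcdhga11, at 22.9 CPM against 31.8 to 32.9 CPM. Summed markers of Schwann and satellite cells were 2443 CPM in WT replicate 4 and 2746 CPM in cKO replicate 4, against 982 to 1927 CPM in the other libraries except WT replicate 2, which had the highest sum (3397 CPM) with the lowest C-type share. Their part in the gamma make-up was not tested.

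**Figure D5:**
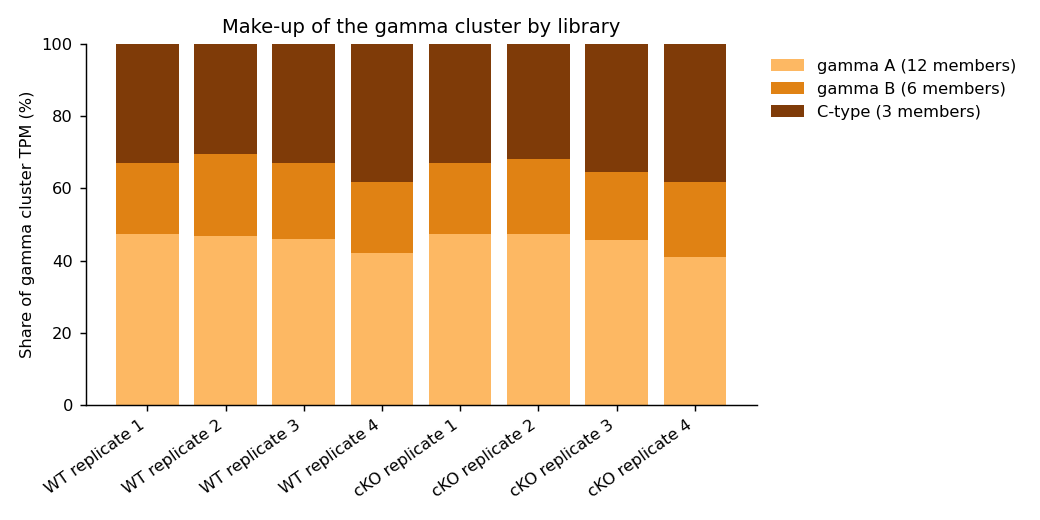
Share of summed gamma cluster TPM held by gamma A, gamma B and C-type genes in each of the 8 libraries, as stacked bars that add to 100%. The C-type segment is 38.1% in replicate 4 of both groups and 30.4% to 35.4% in the other 6 libraries.

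The median coefficient of variation of CPM was 16.1% in WT and 14.3% in cKO, and the median that counting alone would give was 8.59%. Pcdhgc4 went from 27.6% in WT to 4.41% in cKO, and Pcdhgc5 from 37.8% to 15.7%, and in both the WT value included the low WT replicate 2. Pcdha12 had the opposite order, at 2.98% in WT and 19.6% in cKO. No test of these spreads was made.

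The genes that act on or with the clustered protocadherins were read from 3 lists. Of 18 genes for promoter choice and chromatin, including CTCF and cohesin subunits, 0 passed the test (edgeR, beside 0% of all tested genes) and 1 had an unadjusted p below 0.05 (beside 1.65% of all tested genes), with 8 higher and 10 lower in the libraries labelled cKO and a median log2 fold change of −0.01. The lowest p belonged to Dnmt3b, the DNA methyltransferase known in mouse neurons to restrict the choice of protocadherin promoters. It held 1.85, 1.74, 1.83 and 1.06 CPM in the WT libraries and 1.01, 0.895, 1.003 and 1.125 CPM in the cKO libraries (log2 fold change −0.68 ± 0.24 SE, adjusted p = 0.887, edgeR). WT replicate 4 lay with the cKO libraries, and the gene was near 1 CPM. The next was Pds5a, a cohesin regulator, at 84.6 ± 1.01 CPM in the WT libraries and 80.1 ± 3.56 CPM in the cKO libraries (SD, n = 4 each; log2 fold change −0.08).

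Of 16 genes for intracellular partners, such as the kinases bound by the constant domains and subunits of the WAVE actin-regulating complex, 0 passed and 0 had an unadjusted p below 0.05 (edgeR), with 8 higher and 8 lower (median log2 fold change 0.02). Those of lowest p were Ptk2, the focal adhesion kinase that the proteins inhibit, at 65.9 ± 10.6 CPM in the WT libraries and 73.3 ± 3.33 CPM in the cKO libraries, and Pdcd10, at 104.8 ± 33.7 and 88.8 ± 6.14 CPM (SD over 4 libraries in all cases). WT replicate 2 was the extreme WT library for both, at 51.0 CPM for Ptk2 and 154.2 CPM for Pdcd10. Of 9 genes for cleavage of the proteins and for their synaptic partners the counts were also 0 and 0 (edgeR), with 6 higher and 3 lower (median log2 fold change 0.06). Aph1a, a subunit of the gamma-secretase that releases the intracellular domain, stood at 62.1 ± 2.76 CPM in the WT libraries and 67.8 ± 5.25 CPM in the cKO libraries, and Adam10, the metalloprotease that sheds the extracellular domain, at 142.9 ± 21.3 and 128.9 ± 6.37 CPM (SD, n = 4 each). Over all tested genes the median log2 fold change was −0.00, so all 3 lists lay near it.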

How the data were processed

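RNA was measured in 8 libraries labelled as mouse dorsal root ganglia, 4 WT and 4 cKO, grouped by sample title. Estimated counts per gene and TPM values were deposited by the authors in a single table, per the file headers. Per the submitters' processing notes, which state no role or order, the tools were RSEM 1.3.1, HISAT2 2.2.1 and Bowtie2 2.4.5, with mm10 and GRCm38 as genome builds. The annotation used and the strand of the reads are not stated in the sources used here, so overlapping genes cannot be told apart. Columns named Ctrl were matched to the WT samples of the same number, and 16 other per-sample columns were not used. Pcdhgb8, whose symbol also fits the pattern, was not among the 57 genes that the pattern matched in the expression table. It is not analysed here, so gamma sums cover 21 genes.

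Estimated counts, of which 10.3% to 11.0% per library were not whole, were rounded to whole numbers. The main test was that of edgeR 4.0.16, run in R 4.3.3 (filterByExpr, which left 15098 genes, TMM, quasi-likelihood, group only, Benjamini-Hochberg adjustment over all tested genes, threshold 0.05). CPM used TMM-scaled totals of the tested genes. SE values were derived from the F statistic of each gene. The test was first tested on simulated data. Alternatives were DESeq2 1.42.0, limma-voom (limma 3.58.1), RLE factors, no filter, limma on log2(TPM + 0.5) and log2(TPM + 0.1), a replicate block, and leaving out each library. Replicate pairs differed by more than sampling noise (chi-square per degree of freedom 3.64 to 112), so each library counted once. Positions came from RefSeq for GRCm38 by Entrez identifier (57 of 57 matched) and exons from GENCODE M21.

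The members, the gene lists and the markers were chosen with earlier results of these data known. Named members were, in each cluster, the 3 highest and 2 lowest by mean TPM, the 3 of lowest p, and the 5 C-type genes; each pathway list gave its 2 genes of lowest p. Pcdhga11, Pcdhb18, Pcdhb4 and Pcdha12 were also singled out after their values were seen.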

Additional observations from a re-analysis of the deposited data

Results flagged for a closer look

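Within a group of 4 libraries, a gap between the extreme library and its neighbour above 0.829 of the group's range was met in 8 of 118 groups examined, where chance flags about 1 in 20 groups. In the alpha cluster the extreme libraries were all WT and all high. Pcdha1 stood at 4.95 CPM in WT replicate 4 against 2.92 to 3.14 CPM in the other WT libraries, Pcdha7 at 9.73 CPM in WT replicate 2 against 6.98 to 7.39 CPM, and Pcdha9 at 10.49 CPM in WT replicate 1 against 7.37 to 7.72 CPM. In the beta cluster, Pcdhb11 stood at 5.21 CPM in WT replicate 1 against 3.54 to 3.797 CPM, Pcdhb16 at 6.83 CPM in cKO replicate 3 against 5.43 to 5.62 CPM, and Pcdhb22 was low in WT replicate 2, at 4.07 CPM against 5.73 to 5.85 CPM. In the gamma cluster both extremes were low, Pcdhgb7 at 11.7 CPM in WT replicate 4 against 12.5 to 12.6 CPM and Pcdhga11 at 22.9 CPM in cKO replicate 4 against 31.8 to 32.9 CPM.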

How the results depend on the processing

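With 15 alternatives and 25 results, 366 values were recomputed. Of these, 345 stayed on their side of the threshold and within the spread between replicates, and 0 members were called under any alternative (lowest adjusted p of a member 0.631, without WT replicate 1, edgeR). The 345 include changes of sign within that spread. Without WT replicate 2 the gamma median went from 0.07 to −0.03 and the summed gamma difference from 0.09 to −0.012. Members with a higher estimate went from 36 to 25 without that library. Over all genes, DESeq2 called 1 gene (Lztfl1) and edgeR without WT replicate 2 called 1 gene (Capn11), so the range over left-out libraries was 0 to 1. Both genes are named after their values were seen, and the cause was not tested. Genes at an unadjusted p below 0.05 (edgeR) numbered 820, 293, 219 and 614 without WT replicates 1, 2, 3 and 4. They numbered 164, 131, 165 and 202 without cKO replicates 1, 2, 3 and 4. Members at that level ranged from 1 to 3 with a library left out, with 3 without WT replicate 1 (Pcdhga8, Pcdhb7, Pcdhga9) and without cKO replicate 4 (Pcdhga8, Pcdha8, Pcdhga11), and 2 without WT replicate 2 (Pcdhga8, Pcdha11) and without cKO replicate 1 (Pcdhga8, Pcdha8).

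The log2 difference of summed alpha was 0.000731 with log2(TPM + 0.5) and 0.000747 with log2(TPM + 0.1). With a library left out, that of summed beta ranged from 0.0094 (without WT replicate 2) to 0.14 (without WT replicate 1), at 0.024 without cKO replicate 3, and that of summed gamma from −0.012 to 0.14 (the same libraries). Pcdhac1 changed sign, to 0.015 with log2(TPM + 0.5) and 0.017 with log2(TPM + 0.1), and ranged from −0.10 to 0.060 with a library left out. Pcdhgc4 ranged from −0.064 to 0.24 and Pcdhgc5 from −0.17 to 0.26, negative without WT replicate 2 and without cKO replicate 3. DESeq2, limma-voom and the omission of the filter give no separate value for summed levels.

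Whether replicate numbers pair the libraries cannot be decided here, because no label says so and deviations within a group depend on each other. Deviations from the group means correlated at −0.0023, 0.070, −0.017 and 0.26 for the same numbers, and of the WT libraries replicate 4 alone correlated best with its own number. A fit with a replicate block gave 0 members called, 37 members higher, an alpha median of −0.07 and 213 genes at an unadjusted p below 0.05. Members near 1 CPM, such as Pcdha8 and Pcdhb21, rested on 10.52 to 38.8 and 12 to 23 counts per library.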

Other observations

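The non-clustered protocadherins, single genes outside the clusters that lack the shared exons, gave 10 tested genes of 11 (Pcdh12 failed the low-count filter). Of these, 0 were called and 0 had an unadjusted p below 0.05 (edgeR), with 7 higher and 3 lower in the libraries labelled cKO and a median log2 fold change of 0.12, which was −0.02 without WT replicate 2. Pcdh9, the highest at 66.7 TPM on average, held 197.8, 122.3, 200.7 and 224.9 CPM in the WT libraries and 203.7, 203.9, 209.1 and 217.5 CPM in the cKO libraries. WT replicate 2 was again the lowest library. Pcdh18 had the lowest p, at 10.9 ± 1.18 CPM in the WT libraries and 9.28 ± 0.734 CPM in the cKO libraries (SD, n = 4 each; log2 fold change −0.23 ± 0.11 SE, adjusted p = 0.887, edgeR), followed by Pcdh20 at 11.6 ± 2.76 and 14.0 ± 0.718 CPM (log2 fold change 0.27 ± 0.17 SE, adjusted p = 0.887, edgeR). Summed over the 11 genes, WT replicate 2 held 438 CPM and the other 7 libraries 681 to 735 CPM.

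Markers of endothelial cells summed to 84.8 to 111.1 CPM in the WT libraries and 56.1 to 102.0 CPM in the cKO libraries, and markers of microglia and macrophages to 193.6 to 220.2 and 218.0 to 223.5 CPM.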
